A study of Mus musculus with 4 samples.

Results

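Collagen genes are described here across the stromal cell types of the mouse thymus, in wild-type mice and in mice with reduced function of Foxn1, the transcription factor that directs thymic epithelial identity. The members were the 44 genes, of 32285 features listed, whose symbol follows the pattern Col, a number, a and a number, and all 44 had at least 1 unique molecular identifier (UMI) in the cells analysed. CD45-negative thymic cells had been profiled by 3′ tag sequencing in droplets, from untreated C57BL/6 mice aged 6 months. A pair of libraries came from wild-type mice, called mock in the labels (WT 1 and WT 2), and a pair from mice homozygous for Foxn1 LacZ, a hypomorphic allele (Z/Z 1 and Z/Z 2). Each library pooled 10 to 15 thymi, so the spread between libraries is that between pools and the p-values below measure that spread only. After filters 9773 cells remained. WT 1 had 1436 of them, WT 2 had 450, Z/Z 1 had 4427 and Z/Z 2 had 3460.

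Values are given as CPM, the UMIs of a gene per 1000000 UMIs of the same cells and library, and lists of 4 values run in the order WT 1, WT 2, Z/Z 1, Z/Z 2. Foxn1 was at 91.8, 118, 50.6 and 66.9 CPM in epithelial cells, so the genotypes did not overlap. The protocol names the mice as female and the characteristics as male. In fibroblasts the Y-linked Ddx3y lay between 157 and 170 CPM in the 4 libraries, and Xist was at most 1.197 CPM in fibroblasts or epithelial cells, so the libraries were alike in the sex chromosomes on which the X-linked Col4a5 and Col4a6 depend. WT 1 and WT 2 shared 202 called barcodes, 16.9% of those in WT 2, and Z/Z 1 and Z/Z 2 shared 249, 5.53% of those in Z/Z 2, whereas pairs across genotypes shared 0 to 6. Of the 106 epithelial cells of WT 2, 55 carried a shared barcode, and the main counts below are therefore also given with such cells removed. Median UMIs per epithelial cell were 17572, 18316, 6795 and 7063, and the epithelial results were therefore also computed with cells thinned to 2000 UMIs.

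Collagens are triple-helical proteins of the extracellular matrix. Fibril-forming types build tensile fibers in connective tissue, type IV chains assemble as defined trimers into the sheet-like network of basement membranes, and type VI chains form beaded microfilaments close to cells. Fibril-associated collagens decorate fibers, multiplexins sit at the border of basement membranes, and transmembrane collagens serve in cell adhesion. In the thymus, fibroblasts form the capsule and septa, and basement membranes surround vessels and the outer epithelium. Collagen genes were left out of the genes used for clustering and out of every marker list, so their levels in a cell type did not choose its cells. Counts are UMIs from 3′ tags. Intronic reads were included, and 49.0% to 51.4% of reads were exonic. The part of gene length in levels compared between genes was not tested. A level summed over cells cannot separate fewer expressing cells from less RNA per cell.

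Type IV chains were 5 of the 7 collagen genes called between genotypes in fibroblasts (all genes: 1.76% higher and 1.2% lower in Z/Z), and their genes lie in head-to-head pairs. On GRCm38 (GENCODE vM21) Col4a1 and Col4a2 start 21 bases apart on chromosome 8, Col4a3 and Col4a4 72 bases apart on chromosome 1, and Col4a5 and Col4a6 1309 bases apart on chromosome X. The 250 bases before the RefSeq start (GRCm38.p6) are shown for the 5 chains called in fibroblasts, 5′ to 3′ on the strand of the gene, because these members moved together. Capitals mark, on either strand, the letters CCAAT (the CCAAT box), the letters GGGCGG (a GC box) and the short motif GACGC. The windows are chr8:11312827-11313076 (minus strand) for Col4a1, chr8:11312555-11312804 (plus) for Col4a2, chr1:82586850-82587099 (minus) for Col4a4, chrX:141475169-141475418 (plus) for Col4a5 and chrX:141474077-141474326 (minus) for Col4a6.
Col4a1: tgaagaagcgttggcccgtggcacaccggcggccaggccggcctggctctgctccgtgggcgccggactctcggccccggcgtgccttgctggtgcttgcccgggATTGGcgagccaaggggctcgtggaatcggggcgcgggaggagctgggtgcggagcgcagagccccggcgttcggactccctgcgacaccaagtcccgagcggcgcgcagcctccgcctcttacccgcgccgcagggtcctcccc
Col4a2: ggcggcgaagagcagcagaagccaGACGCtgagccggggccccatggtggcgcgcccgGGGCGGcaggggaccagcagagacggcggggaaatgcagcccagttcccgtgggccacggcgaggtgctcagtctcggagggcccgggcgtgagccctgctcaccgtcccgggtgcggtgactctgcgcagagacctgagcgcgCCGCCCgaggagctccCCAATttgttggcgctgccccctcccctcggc
Col4a4: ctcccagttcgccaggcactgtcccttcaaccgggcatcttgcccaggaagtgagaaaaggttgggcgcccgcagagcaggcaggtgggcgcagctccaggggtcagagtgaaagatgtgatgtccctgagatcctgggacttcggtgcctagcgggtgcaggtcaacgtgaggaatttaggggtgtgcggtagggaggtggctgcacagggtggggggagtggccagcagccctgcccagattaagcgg
Col4a5: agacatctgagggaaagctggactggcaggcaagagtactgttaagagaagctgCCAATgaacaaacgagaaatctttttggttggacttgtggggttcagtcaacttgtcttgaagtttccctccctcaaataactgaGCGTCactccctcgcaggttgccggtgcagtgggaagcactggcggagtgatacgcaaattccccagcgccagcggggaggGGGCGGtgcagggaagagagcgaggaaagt
Col4a6: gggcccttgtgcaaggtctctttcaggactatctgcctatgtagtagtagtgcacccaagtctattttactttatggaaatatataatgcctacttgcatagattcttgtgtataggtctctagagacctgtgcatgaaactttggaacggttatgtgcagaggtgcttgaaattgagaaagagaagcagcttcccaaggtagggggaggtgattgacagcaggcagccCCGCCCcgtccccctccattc
GC content was 74.4% in the Col4a1 window, 73.6% in that of Col4a2, 62.8% for Col4a4, 54% for Col4a5 and 47.6% for Col4a6. CCAAT was in 3 of the 5 windows, those of Col4a1, Col4a2 and Col4a5, against 33.8% of 32851 windows of the same length before annotated starts and 13 of 38 windows of 35 collagen genes. GGGCGG occurred in Col4a2, Col4a5 and Col4a6, against 32.7% of all windows, and in 22 of the 38 collagen windows. GACGC occurred in Col4a2 and Col4a5, against 22.6% of all windows and 7 of the 38 collagen windows. The Col4a4 window held none of the 3 motifs.

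Fibroblasts took the largest share of their UMIs in collagens, at 0.798%, 0.704%, 0.788% and 0.900%. Endothelial cells stood at 0.198%, 0.161%, 0.241% and 0.249%, and mural cells, the contractile cells of vessel walls, at 0.188%, 0.228%, 0.163% and 0.174%. Epithelial cells were lowest, at 0.0806%, 0.0783%, 0.127% and 0.138%. The genotypes did not overlap in epithelial, endothelial or mural cells but did in fibroblasts, and the Z/Z minus WT difference was 0.0531, 0.0653, -0.0398 and 0.0930 percentage points respectively, given without a test because it sums over the members. Barcodes with few UMIs, taken as empty droplets, held 0.111% to 0.288% collagen UMIs, above the share in epithelial cells of every library.

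**Figure D1:**
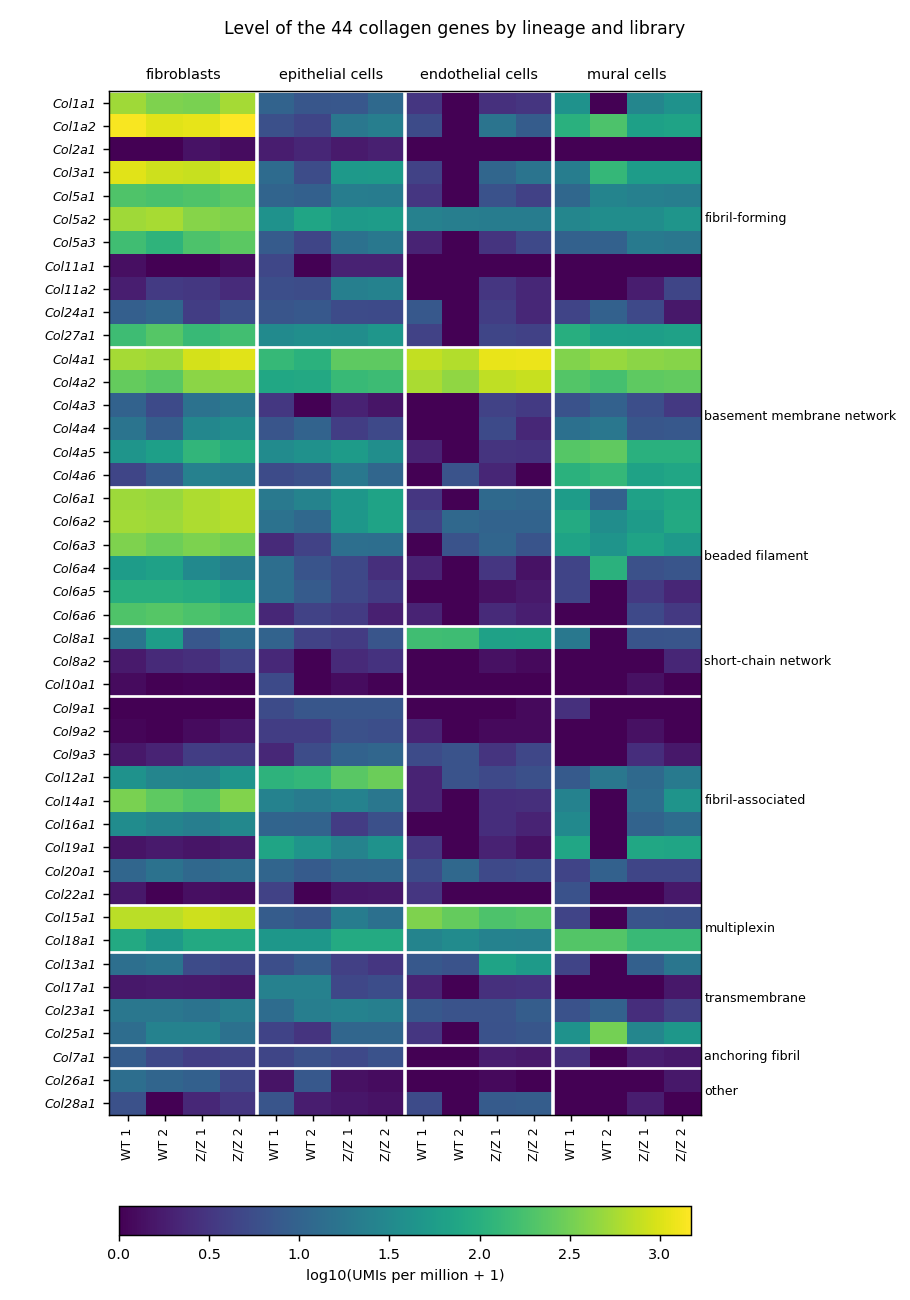
Level of the 44 collagen genes, on a color scale of log10(CPM + 1), by class (bands) and by lineage and library (columns). Fibril-forming and beaded filament genes are brightest in fibroblasts, Col4a1 and Col4a2 in endothelial cells and fibroblasts, Col12a1 in epithelial cells, and Col18a1, Col4a5 and Col4a6 in mural cells.

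The 4 lineages divided the collagen classes among them. Of the 44 genes, 22 had their highest mean level in fibroblasts, 11 in epithelial cells, 6 in mural cells and 5 in endothelial cells. The edgeR quasi-likelihood test over all 16 sums of lineage and library, with the library as a term, covered 14620 genes and 39 of the 44 members. The 5 members left out as too low were Col2a1, Col8a2, Col10a1, Col11a1 and Col22a1, each at a mean of at most 1.72 CPM in any lineage. Fibroblasts exceeded the next lineage at an adjusted p under 0.05 for 17 of their 22 genes, epithelial cells for 5 of 11, mural cells for 5 of 6 and endothelial cells for 4 of 5. Against epithelial cells, 26 of the 39 members were higher in fibroblasts and 7 lower, where 26.2% and 28.1% of all genes tested were; the median member difference was 2.43 on the log2 scale, that of all genes -0.07. Against endothelial cells the counts were 27 and 5 (22.7% and 18.5% of all genes), and against mural cells 22 and 5 (20.8% and 16.8%). Epithelial cells were higher than endothelial cells for 21 members and lower for 6 (28.5% and 21.7%), and higher than mural cells for 9 and lower for 18 (26% and 21.9% of all genes). Endothelial cells were higher than mural cells for 5 members and lower for 19 (18.8% and 20.1%). With shared barcodes removed, 22 to 30 of 38 members were called in each of these 6 comparisons.

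Fibril-forming collagens were genes of fibroblasts. Col1a2, which encodes a chain of type I collagen, averaged 1264 ± 202 CPM (SD, n = 4) in fibroblasts, ahead of mural cells at 106 ± 59.0, a log2 difference of 3.72 (SE 0.50, adjusted p = 2.7e-05). Col3a1, the chain of type III collagen of extensible tissues, averaged 939 ± 137 CPM, with 65.7 ± 46.0 in mural cells (4.29, SE 0.59, adjusted p = 3.2e-05). Col5a2, a type V chain that takes part in starting fibrils, averaged 462 ± 99.8 CPM and Col1a1 448 ± 109. Col5a1, Col5a3 and Col27a1 were called over the next lineage as well, whereas Col24a1 was not (6.42 ± 3.29 CPM, adjusted p = 0.27 against epithelial cells). Col11a2, known from cartilage, was the fibril-forming gene of epithelial cells, at 13.9 ± 10.8 CPM. The class made up 46.0 ± 4.19% of the collagen UMIs of fibroblasts, 18.1 ± 1.52% in mural cells, 17.7 ± 1.22% in epithelial cells and 2.17 ± 0.567% in endothelial cells.

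All 6 genes of the beaded filament class had their highest mean in fibroblasts and were called over the next lineage. For Col6a4 the means were close, at 42.7 ± 20.4 CPM in fibroblasts and 29.7 ± 49.6 in mural cells, and mural cells were ahead in WT 2. Col6a2 averaged 580 ± 75.96 CPM, Col6a1 574 ± 94.9 and Col6a3 328 ± 32.0, and these 3 encode the chains of the common type VI trimer. Col6a6 averaged 188 ± 26.8 CPM in fibroblasts and at most 1.97 in any other lineage, with a log2 difference of 7.10 (SE 0.30, adjusted p = 6.2e-11), the largest over a next lineage among the members. The class made up 22.7 ± 1.21% of fibroblast collagen UMIs. Col6a1 and Col6a2 were counted in a ratio between 0.95 and 1.02 in the fibroblasts of the 4 libraries, while Col1a1 and Col1a2 stood at 0.30 to 0.38.

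Basement membrane chains were split by pair. Col4a1 and Col4a2 encode the chains of the trimer found in nearly all basement membranes, and Col4a2 was higher in endothelial cells (643 ± 156 CPM) than in fibroblasts (333 ± 104), a log2 difference of 0.95 (SE 0.16, adjusted p = 0.00013). Col4a1 averaged 946 ± 292 CPM in endothelial cells and 767 ± 271 in fibroblasts, which did not differ past the threshold (0.30, SE 0.20, adjusted p = 0.26). Col4a5 and Col4a6, which pair in a trimer known around smooth muscle, were highest in mural cells at 168 ± 78.3 and 94.1 ± 29.0 CPM, and both were called over fibroblasts (adjusted p = 0.016 and 0.00024). Endothelial cells held 1.23 ± 0.916 CPM of Col4a5 beside their Col4a1. Col4a3 and Col4a4, known from the kidney glomerulus, had their highest means in fibroblasts (11.6 ± 6.29 and 21.9 ± 12.6 CPM) without a call over mural cells (adjusted p = 0.059 and 0.11). These 6 genes made up 74.1 ± 7.25% of the collagen UMIs of endothelial cells, 48.8 ± 2.04% in mural cells, 32.6 ± 2.50% in epithelial cells and 15.2 ± 4.39% in fibroblasts.

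Fibril-associated genes took 27.3 ± 2.05% of the epithelial collagen UMIs. Col12a1, which links fibers to their surroundings, was the member with the highest epithelial mean, at 187 ± 83.4 CPM against 34.1 ± 8.97 in fibroblasts (2.04, SE 0.23, adjusted p = 2.3e-06). Col9a1 and Col9a2, chains of a cartilage collagen, were also called highest in epithelial cells, at 5.61 ± 0.902 and 3.85 ± 1.23 CPM. Col14a1 was a fibroblast gene (289 ± 81.0 CPM), as was Col20a1 at a far lower level (12.0 ± 2.03). Col19a1 was highest in mural cells (55.7 ± 37.2 CPM) with epithelial cells next at 44.99 ± 18.9, a called difference (adjusted p = 0.039) although the 11 mural cells of WT 2 held no Col19a1 UMI. Col9a3 and Col16a1 had no call for their first place, and Col22a1 was not tested.

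Among the remaining classes, the multiplexins parted, with Col15a1 highest in fibroblasts (753 ± 78.4 CPM, endothelial cells next at 256 ± 74.5) and Col18a1, the source of the fragment endostatin, in mural cells (175 ± 40.7 CPM, fibroblasts next at 75.4 ± 15.3). Col8a1, a short-chain collagen of vessel walls, was called highest in endothelial cells at 110 ± 52.0 CPM, as was the transmembrane Col13a1 at 33.1 ± 31.9 CPM. This order held in Z/Z libraries only, since in both WT libraries Col13a1 was higher in fibroblasts (13.4 and 15.8 CPM) than in endothelial cells (6.42 and 5.44). Col17a1, the hemidesmosome collagen of stratified epithelia, averaged 14.1 ± 11.5 CPM in epithelial cells and at most 1.18 elsewhere. Col25a1 was called highest in mural cells at 109 ± 142 CPM, a mean set by the 11 mural cells of WT 2. Col7a1, which anchors the epidermal basement membrane, did not differ past the threshold between epithelial cells (4.54 ± 0.827 CPM) and fibroblasts (4.32 ± 2.02, adjusted p = 0.65), nor did Col23a1 (20.1 ± 5.36 and 17.6 ± 2.35 CPM, adjusted p = 0.61). Col26a1 was called highest in fibroblasts (8.71 ± 3.80 CPM) and Col28a1 in endothelial cells (4.78 ± 3.52), the latter from 4, 0, 36 and 37 UMIs and ahead only in Z/Z libraries, since in WT 1 it was at 4.28 CPM there and 5.89 in epithelial cells.

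The 8 collagens with the highest means summed to 71.6% to 73.5% of fibroblast collagen UMIs (Col1a2, Col3a1, Col4a1, Col15a1, Col6a2, Col6a1, Col5a2 and Col1a1). They summed to 95.2% to 97.6% in endothelial cells, where Col4a1 and Col4a2 were followed by Col15a1, Col8a1, Col13a1, Col18a1, Col5a2 and Col6a2. In mural cells they reached 65.8% to 79.9% (Col4a1, Col4a2, Col18a1, Col4a5, Col25a1, Col1a2, Col4a6 and Col27a1), and in epithelial cells 65.6% to 69.5% (Col12a1, Col4a1, Col4a2, Col18a1, Col5a2, Col19a1, Col4a5 and Col6a1).

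Over all fibroblasts, type IV collagen genes rose in Z/Z mice while the fibril-forming genes were not called, although Col5a2 was called lower in the Pi16 set. Of 36 members tested, 5 were higher in Z/Z libraries and 2 lower, against 1.76% and 1.2% of 13888 genes, and the median member difference was 0.12 on the log2 scale against 0.01 for all genes. The 5 that rose were all type IV chains, Col4a1, Col4a2, Col4a4, Col4a5 and Col4a6, and the 2 that fell were Col6a4 and Col13a1. With shared barcodes removed 3 were called, and without WT 1 or without WT 2 only 1 in each case, while all 7 kept their direction.

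Col4a1 in fibroblasts was at 559, 515, 934 and 1060 CPM (log2 difference 0.96, SE 0.17, adjusted p = 0.0177). Col4a2 was at 261, 227, 415 and 430 CPM (0.86, SE 0.16, adjusted p = 0.0223). For both chains each Z/Z library lay above each WT library, and the ratio of Col4a1 to Col4a2 stayed between 2.14 and 2.46. Col4a5 was at 43.9, 60.6, 122 and 91.6 CPM (1.12, SE 0.21, adjusted p = 0.0258). Col4a6 was at 3.59, 7.003, 23.9 and 21.5 CPM (2.30, SE 0.33, adjusted p = 0.0076), the largest difference of the class. The ratio of Col4a5 to Col4a6 accordingly went from 12.2 and 8.65 in WT to 5.12 and 4.26 in Z/Z libraries. Col4a4 was at 15.8, 7.70, 28.2 and 36.1 CPM (1.42, SE 0.29, adjusted p = 0.0351). Its neighbor Col4a3, at 8.96, 4.20, 14.8 and 18.4 CPM, did not overlap between genotypes either but missed the threshold (1.29, adjusted p = 0.0751), so that 5 of 6 type IV chains were called.

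Col13a1, a transmembrane collagen of adhesion sites, was at 13.4 and 15.8 CPM in WT fibroblasts and at 4.30 and 3.63 in Z/Z fibroblasts (-1.79, SE 0.29, adjusted p = 0.0137). Col6a4 was at 55.7, 63.7, 31.2 and 20.3 CPM (-1.13, SE 0.22, adjusted p = 0.0293). Neither overlapped between genotypes. Col3a1, by contrast, was at 1078 and 850 CPM in WT and 795 and 1031 in Z/Z libraries, so the genotypes overlapped (-0.01, SE 0.19, adjusted p = 0.98). Mural markers summed to 214 to 233 CPM in WT fibroblasts and 239 to 439 in Z/Z fibroblasts, all 9 of 9 detected in each, beside 15911 to 22846 in mural cells. Their part in the rise of Col4a5 and Col4a6, both highest in mural cells, was not tested. With empty-droplet RNA subtracted 7 members were called in fibroblasts, a step that covers droplet background and not mural RNA within these cells.

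**Figure D2:**
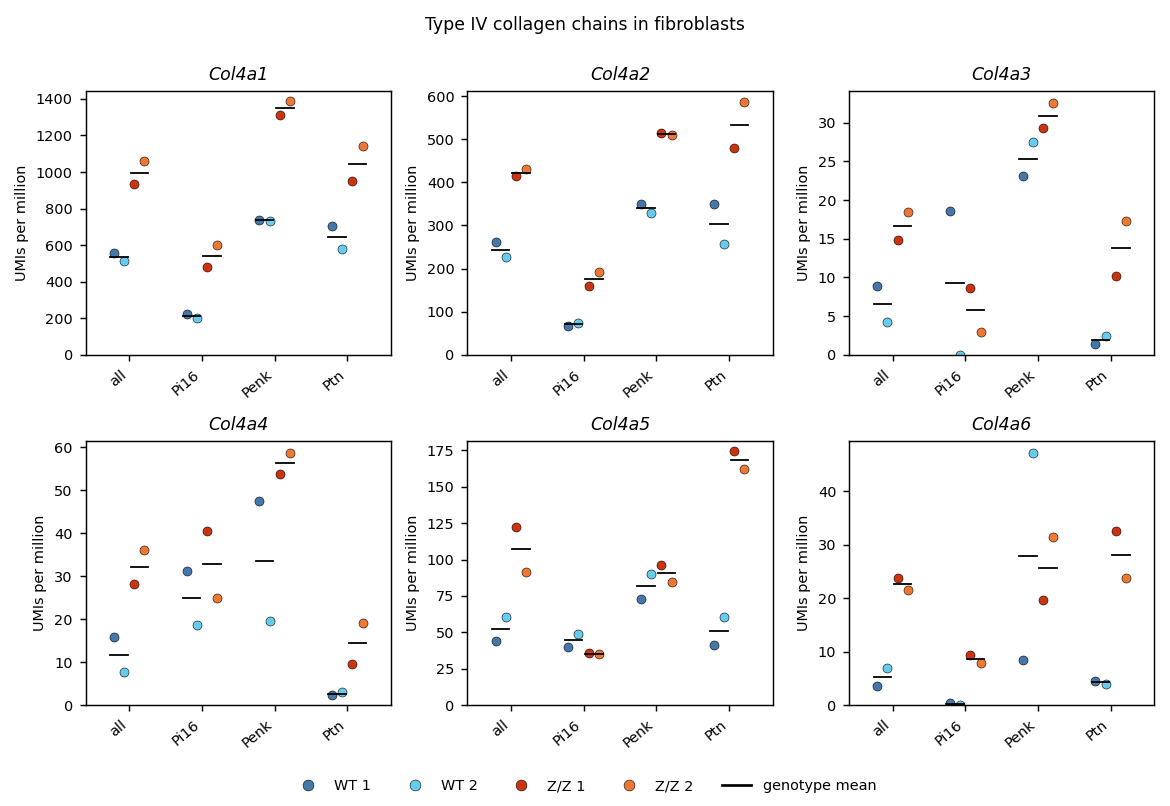
Levels in CPM (vertical axes, each from 0) of the 6 type IV chains in all fibroblasts and in the Pi16, Penk and Ptn sets. Points are libraries and bars genotype means. Col4a1 is higher in Z/Z libraries in each set, the rise of Col4a5 is seen in the Ptn set (41.2 and 60.2 against 175 and 162), and Col4a3 and Col4a4 have their highest means in the Penk set.

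Fibroblasts fell into 3 sets named by a leading gene, Pi16 (a gene of adventitial and capsular fibroblasts), Penk and Ptn. Col1a2, Col3a1, Col4a1, Col5a2, Col6a1 and Col6a2 were among the 8 highest collagens of each set, and the sets differed in order and level. Pi16 fibroblasts averaged 1891 CPM of Col1a2, 1362 of Col3a1, 841 of Col1a1 and 786 of Col14a1. Ptn fibroblasts led with Col15a1 (1137 CPM) and Col4a1 (845), and Penk fibroblasts with Col1a2 (1754) and Col4a1 (1042). Col14a1 was at 557 to 955 CPM in Pi16 fibroblasts and 3.06 to 67.0 in Ptn fibroblasts, and Col15a1 at 18.6 to 87.3 and 865 to 1411, so neither range overlapped in the 4 libraries. Among the fibroblast sets, Col6a4 lay mainly in the Ptn set (58.7 to 94.8 CPM, at most 11.8 in the others). Outside fibroblasts, pericyte-like mural cells held it at 23.5 to 710 CPM. Numbers of cells per set differed by library, with Ptn fibroblasts 62.3% and 73.4% of WT and 61.1% and 35.2% of Z/Z fibroblasts. Pi16 fibroblasts were 25.5% and 15.1% of WT and 16.3% and 26.6% of Z/Z fibroblasts. Penk fibroblasts were 12.2% and 11.5% of WT and 22.5% and 38.2% of Z/Z fibroblasts, without overlap. The Penk set had the highest means of Col4a1, Col4a3 (28.1 CPM) and Col4a4 (44.8) of the 3 sets. The part of its share in the type IV differences over all fibroblasts was not tested.

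Col4a1 was called in Pi16 and Penk fibroblasts and Col4a2 in Pi16 fibroblasts. In the Pi16 set Col4a1 was at 226, 200, 479 and 600 CPM (1.39, SE 0.17, adjusted p = 0.0063) and Col4a2 at 67.5, 74.5, 160 and 193 (1.39, adjusted p = 0.0092). The set had 26 members tested, 4 higher and 1 lower, against 2.27% and 1.35% of 10631 genes. The other calls were Col6a5, with 1, 0, 120 and 108 UMIs, a ratio of CPM of 142 over the summed UMIs (95% counting interval 25.2 to 5623, adjusted p = 0.0013), Col4a6, with 1, 0, 26 and 19 UMIs (ratio 28.0, interval 4.77 to 1129, adjusted p = 0.0255), and Col5a2, which fell from 457 and 516 to 271 and 271 CPM (-0.79, adjusted p = 0.0354). Intervals cover counting error only. The Ptn set held 114 to 162 CPM of Col6a5 in every library, and both Col6a5 and Col4a6 were still called in the Pi16 set with empty-droplet RNA subtracted (adjusted p = 0.00138 and 0.0286). Other fibril-forming genes were lower in both Z/Z libraries of the Pi16 set without a call. These were Col1a2 (2244, 2095, 1446 and 1776 CPM), Col3a1 (1656, 1632, 910 and 1252) and Col1a1 (1084, 1021, 482 and 779). Col27a1 went the other way (16.3, 8.46, 28.3 and 66.1). The collagen share of the set was 0.828%, 0.824%, 0.577% and 0.755%.

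In Penk fibroblasts 1 of 26 members rose and 1 fell, against 0.771% and 0.635% of 10244 genes. Col4a1 went from 741 and 731 CPM to 1310 and 1386 (0.94, adjusted p = 0.0280), and Col25a1, a neuronal collagen, from 43.7 and 15.7 to 7.95 and 6.36 (-2.17, adjusted p = 0.0496). In Ptn fibroblasts 4 of 33 members rose and 1 fell, against 1.27% and 0.958% of 12108 genes. There Col4a5 was at 41.2, 60.2, 175 and 162 CPM (1.78, adjusted p = 0.0031) and Col4a6 at 4.49, 3.98, 32.6 and 23.7 (2.74, adjusted p = 0.0027). Col4a3 at 1.43, 2.49, 10.2 and 17.3 (2.89, adjusted p = 0.0169) and Col4a4 at 2.24, 2.98, 9.56 and 19.1 (2.46, adjusted p = 0.0317) rose with them. Col13a1 fell from 21.8 and 21.9 to 5.67 and 7.29 CPM (-1.78, adjusted p = 0.0169). Each of these genes was without overlap between genotypes, and Col6a4, at 94.8, 89.0, 58.7 and 66.5 CPM, was not called. The Ptn set is made of 3 clusters that were unequally filled by genotype, with cluster 3 holding 47.4% and 57.8% of WT and 1.65% and 2.03% of Z/Z fibroblasts. Cluster 0, led by the heat-shock genes Hspa1a and Hspa1b and with Jun, Hsph1 and Egr1 among its leading genes, held 3.52% and 8.33% of WT and 54.0% and 27.9% of Z/Z fibroblasts, so a change in Ptn fibroblasts and a change in which of them were present cannot be told apart. Mural markers summed to 293 to 368 CPM in WT and 590 to 766 in Z/Z Ptn fibroblasts, with all 9 of 9 detected, and the genotypes were apart in the other sets too, with 16.9 to 38.7 CPM in WT and 46.6 to 59.2 in Z/Z Pi16 fibroblasts and 39.3 to 52.2 against 129 to 134 in the Penk set. The part of these genes and of the heat-shock genes in the collagen differences was not tested. With shared barcodes removed, 5 members were called in Ptn and 5 in the Pi16 and Penk sets together. These counts can include members not called above, and all members called above kept their sign.

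Endothelial collagens changed in 2 genes, 1 in each direction, of 18 members tested (0.608% of 11345 genes were higher and 0.555% lower in Z/Z). The median member difference was 0.89 against 0.03 for all genes. Col13a1 was at 6.42, 5.44, 67.5 and 52.9 CPM (log2 difference 3.25, SE 0.44, adjusted p = 0.0106), from 6, 1, 341 and 254 UMIs. Nearly all of these molecules lay in 1 of 4 endothelial clusters, cluster 17, led by Flt1, Igfbp7, Pecam1 and Plvap, with 5, 0, 312 and 240 UMIs. That cluster held 3, 0, 84 and 64 cells, or 2.80%, 0%, 12.3% and 9.55% of the endothelial cells. Its Col13a1 level was 267 CPM in the 3 cells of WT 1 and 388 and 450 in Z/Z libraries, and in the largest endothelial cluster Col13a1 was at 2.38, 11.9, 6.51 and 4.40 CPM. More cells of cluster 17 and more Col13a1 per endothelial cell thus went together, and the level within the cluster in WT rests on 5 UMIs.

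Col8a1 fell from 158 and 152 CPM in WT to 64.8 and 66.1 in Z/Z endothelial cells (-1.25, SE 0.22, adjusted p = 0.0257). In cluster 11, led by Flt1, Fabp4, Cyyr1 and Mecom, which carried most of it, Col8a1 was at 655, 434, 312 and 282 CPM, so the genotypes did not overlap within that cluster either. The cluster made up 21.5%, 20.8%, 16.1% and 14.3% of endothelial cells, or 23, 5, 110 and 96 cells, and its levels were not tested. WT 2 had 24 endothelial cells in all. Col15a1, a collagen of the outer face of vessel basement membranes, was highest in cluster 12, led by Selp, a venous adhesion gene, at 840, 731, 600 and 625 CPM. In the largest cluster it was at 188, 238, 68.8 and 62.1 CPM, without overlap and with no test in clusters, and over all endothelial cells it was not called (-0.67). Col4a1 over all endothelial cells missed the threshold (0.78, adjusted p = 0.0999). Both calls held with shared barcodes removed, whereas with cells thinned to 2000 UMIs they were at 1.72 (adjusted p = 0.23) for Col13a1 and -0.67 (adjusted p = 0.46) for Col8a1.

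**Figure D3:**
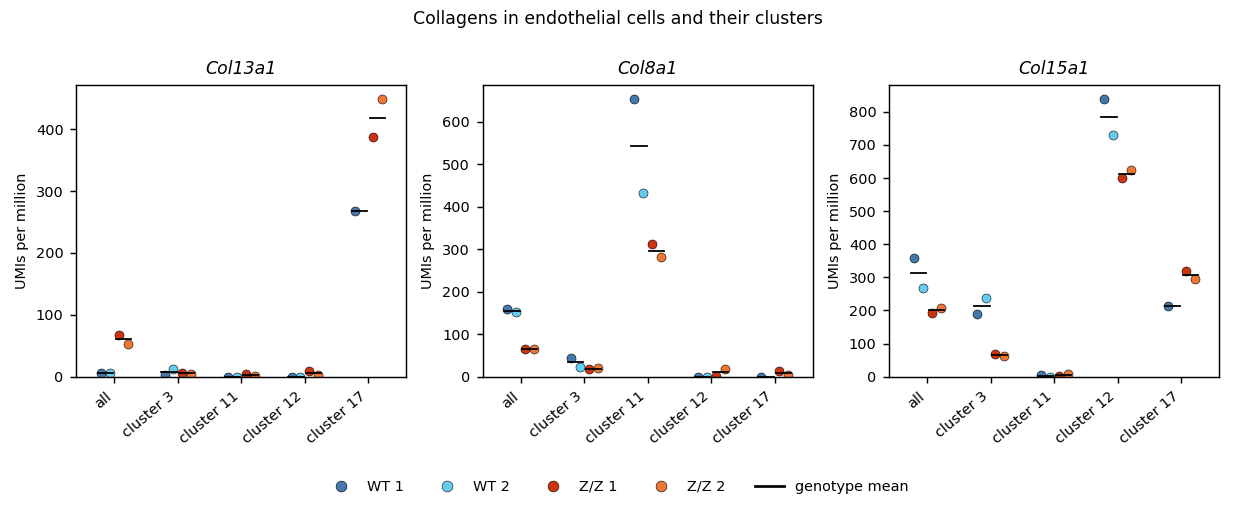
Levels in CPM (vertical axes from 0) of Col13a1, Col8a1 and Col15a1 in all endothelial cells and in the 4 endothelial clusters, by library (points) with genotype means (bars). WT 2 had no cell in cluster 17. Col13a1 is nearly confined to cluster 17, Col8a1 to cluster 11, and Col15a1 is highest in cluster 12.

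In mural cells 0 of 21 members passed the threshold by edgeR and 0 by DESeq2, against 0.0694% of 8641 genes higher and 0.0116% lower in Z/Z. At an unadjusted p under 0.05 there were 5 members by edgeR and 2 by DESeq2, and 796 of all mural genes by edgeR. WT 2 contributed 11 mural cells, which limits what could be detected. Pericyte-like mural cells took 0.255%, 0.325%, 0.329% and 0.361% of their UMIs in collagens and smooth muscle-like cells 0.205%, 0.265%, 0.127% and 0.148%, and pericyte-like cells held Col4a1 at 773, 355, 891 and 855 CPM. Col3a1 in the same cells was at 226, 887, 271 and 288 CPM, where the value of WT 2 came from 15 UMIs in 3 cells, and Col4a2 was at 290, 59.1, 498 and 640.

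Epithelial cells had the most collagen calls, with 15 of 41 members higher and 1 lower in Z/Z, against 10.8% and 12.6% of 18927 genes. The median member difference was 0.44 on the log2 scale against -0.0034 for all genes. With cells of shared barcodes removed, which leaves WT 2 with 51 epithelial cells, 0 of 40 members passed the threshold by edgeR (14 at an unadjusted p under 0.05), as did 1 gene of all, and the 16 members kept their sign, from -2.06 for Col17a1 to 3.88 for Col6a3. With cells thinned to 2000 UMIs 12 of 30 were called, 9 higher and 3 lower, and 10 of the 16 kept their call, whereas Col11a2 went to 1.23 (adjusted p = 0.17), Col4a2 to 0.50 (adjusted p = 0.077) and Col18a1 to 0.47 (adjusted p = 0.17). Epithelial composition differed between genotypes. The types are named after their markers as cortical (cTEC-like), medullary (mTEC1-like and the Aire-expressing mTEC2-like) and the age-associated types of the study (aaTEC1-like and aaTEC2-like). mTEC2-like cells were 49.1% and 45.3% of WT and 3.02% and 4.70% of Z/Z epithelial cells, aaTEC1-like cells 2.57%, 6.60%, 12.7% and 11.7%, and aaTEC2-like cells, the Nos1-expressing cells of low Epcam, 2.02%, 0.943%, 28.4% and 24.8%. The share of WT 2 was 1 cell, with no Nos1 UMI and with Epcam at 1045 CPM, which goes against the name. Fitted without aaTEC2-like cells, 8 members rose and 4 fell. Of those that fell, only Col17a1 was also called lower in the main fit. The shares of all genes called in this fit and in the thinned fit are not given, so these counts cannot be set against them. Col17a1, Col11a2, Col12a1, Col18a1, Col4a1, Col4a2, Col6a1, Col6a2 and Col3a1 kept their call (Col3a1 at an adjusted p of 0.0495), and 7 genes did not.

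The gene that fell was Col17a1, at 24.1 and 23.9 CPM in WT and 3.79 and 4.61 in Z/Z epithelial cells (-2.37, SE 0.25, adjusted p = 0.0069). Its level within mTEC2-like cells was 35.2, 34.7, 39.5 and 24.7 CPM, so the genotypes overlapped there, and it was at most 5.65 CPM in aaTEC1-like and 1.93 in cTEC-like cells. Col11a2 was at 4.83, 4.39, 22.3 and 24.3 CPM (2.47, SE 0.24, adjusted p = 0.0064). It was a gene of aaTEC1-like cells, where it stood at 145, 28.3, 70.0 and 81.2 CPM from 33, 5, 392 and 367 UMIs, again with the genotypes overlapping. The levels of both genes in these types did not separate the genotypes, and the types were compared as values with no test. The aaTEC1-like share of WT 2 was above that of WT 1 while Col11a2 over all epithelial cells was at a like level in both.

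Col12a1 was at 110, 126, 227 and 286 CPM over all epithelial cells (1.26, SE 0.17, adjusted p = 0.0099). Both Z/Z libraries were above both WT libraries within cTEC-like cells (255, 205, 485 and 662 CPM), mTEC1-like cells (184, 187, 315 and 327) and mTEC2-like cells (21.5, 30.1, 94.7 and 54.5). WT 2 had 9 cTEC-like and 4 mTEC1-like cells. These levels within types are values with no test, and the share of all genes without overlap is not given. In aaTEC1-like cells Col12a1 was at 8.78, 141, 103 and 108 CPM and in aaTEC2-like cells at 161, 0, 24.4 and 25.96, so the genotypes overlapped in both. Of the 6 type IV chains, 3 rose in epithelial cells. Col4a1 was at 133, 105, 245 and 244 CPM (1.19, adjusted p = 0.0097) and Col4a2 at 77.5, 80.2, 137 and 149 (1.01, adjusted p = 0.0094). Col18a1, at 47.1, 47.1, 85.4 and 84.9 CPM (1.001, adjusted p = 0.0104), and Col4a6, at 4.25, 5.19, 17.7 and 10.2 (1.75, adjusted p = 0.0319), did not overlap either. Col4a5 (0.48), Col4a3 (-0.79) and Col4a4 (-0.96) were not called. Col4a1 within cTEC-like cells was at 158, 72.2, 259 and 243 CPM.

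Fibril-forming and beaded filament genes made up 8 of the 15 rises. Col3a1 was at 11.7, 4.39, 50.7 and 53.2 CPM (2.69, adjusted p = 0.0113) and Col1a2 at 4.99, 3.59, 16.9 and 21.9 (2.26, adjusted p = 0.0095). Col6a2 was at 14.6, 10.8, 46.7 and 67.4 CPM (2.27, adjusted p = 0.0078), Col6a1 at 18.2, 25.1, 47.1 and 67.8 (1.58, adjusted p = 0.0162) and Col6a3 at 1.39, 3.19, 13.5 and 13.0 (2.89, adjusted p = 0.0141). For each of these genes the genotypes were apart, and in fibroblasts their levels were far higher. Col5a1 (9.41, 8.38, 21.3 and 20.8 CPM, 1.38, adjusted p = 0.0142) and Col5a3 (7.20, 3.59, 14.1 and 17.5, 1.60, adjusted p = 0.0338) rose as well, as did Col15a1 (7.45, 5.98, 20.2 and 13.9, 1.47, adjusted p = 0.0274) and Col25a1 (3.35, 1.99, 10.2 and 10.0, 1.97, adjusted p = 0.0202). Without aaTEC2-like cells the differences of the last 4 were 0.86, -0.39, 0.72 and 0.13 (adjusted p = 0.067, 0.66, 0.29 and 0.89), those of Col1a2, Col6a3 and Col4a6 0.64, 0.39 and 0.74 (adjusted p = 0.24, 0.69 and 0.21), and that of Col3a1 1.34. Fibroblast markers summed to 425 to 487 CPM in WT and 375 to 401 in Z/Z epithelial cells, all 9 detected in each, beside 13284 to 17550 in fibroblasts. The sum does not stand for each marker. Dcn (101, 90.6, 195 and 185 CPM) and Lum (4.99, 1.60, 18.4 and 19.0) were called higher in Z/Z although the list sum was lower. The part of fibroblast RNA in the collagen rises was not tested. Mural markers summed to 261 to 466 CPM in WT and 545 to 584 in Z/Z epithelial cells. Empty-droplet RNA, estimated from immune genes, was 7.31% and 2.20% of the UMIs of WT and 15.2% and 13.3% of those of Z/Z epithelial cells, so it moved with the genotype. With it subtracted, 10 members were called, 8 higher and 2 lower, and the share of all genes called in that fit is not given. Col6a1, Col6a2, Col6a3, Col5a3 and Col4a6 lost their call, and Col1a2 and Col15a1 were then too low to be tested.

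**Figure D4:**
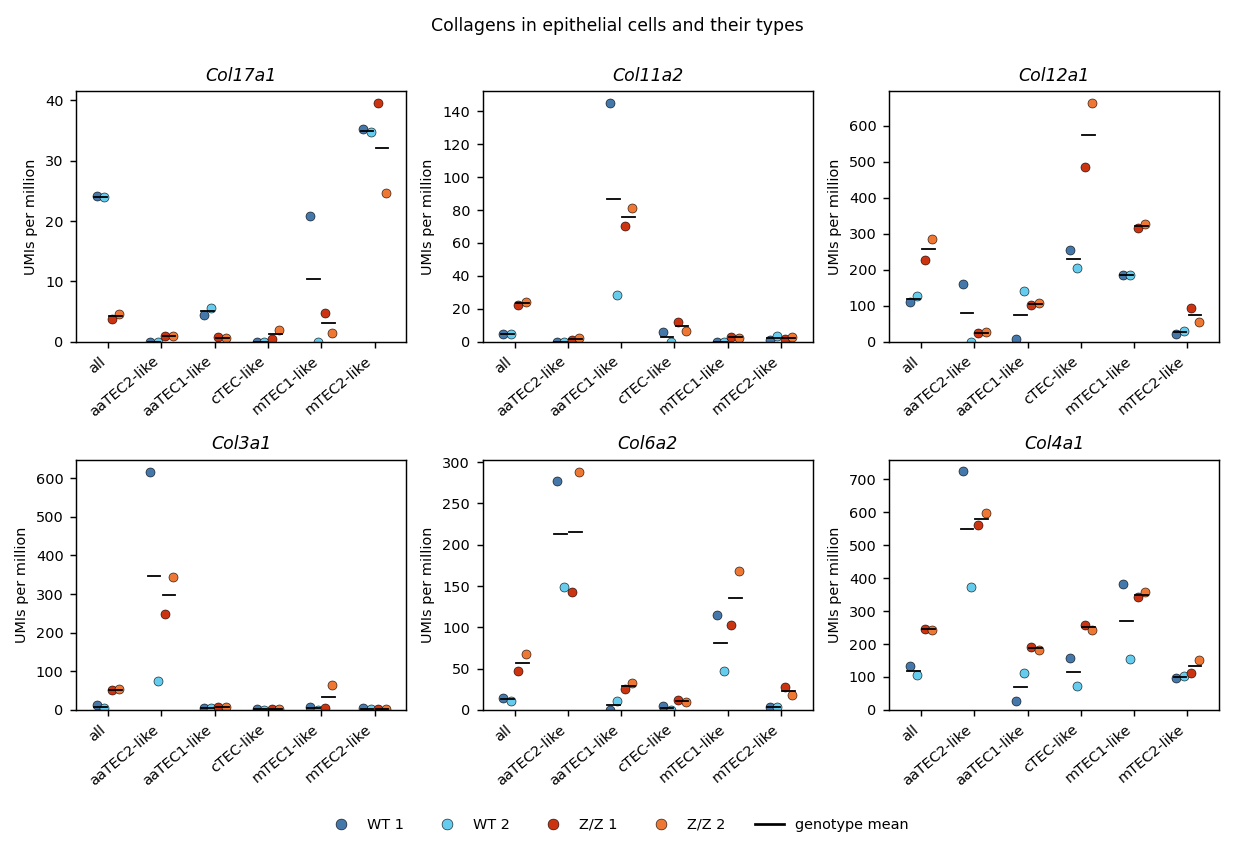
Levels in CPM (vertical axes from 0) of 6 collagen genes in all epithelial cells and in 5 epithelial types, by library (points) with genotype means (bars). Col17a1 is carried by mTEC2-like and Col11a2 by aaTEC1-like cells at levels that overlap between genotypes, Col3a1 by aaTEC2-like cells, and Col12a1 is higher in Z/Z within cTEC-like and mTEC1-like cells. The aaTEC2-like value of WT 2 is 1 cell with no Nos1 UMI, and its cTEC-like and mTEC1-like values are 9 and 4 cells.

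aaTEC2-like cells carried a set of collagens apart from that of other epithelial cells. They were compared within the 3 libraries with at least 10 such cells (WT 1 with 11, Z/Z 1 with 555 and Z/Z 2 with 380), with the library as a term, and 22 of 37 members were higher and 8 lower, against 13.7% and 17.8% of 15454 genes. Collagens took 0.326%, 0.238% and 0.297% of their UMIs, against 0.0783%, 0.105% and 0.116% in the other epithelial cells of the same libraries. With shared barcodes removed 29 members were called. Several of these genes were also high elsewhere. Averaged over the 4 libraries, pericyte-like mural cells held Col4a1 at 718 CPM, Col3a1 at 418, Col4a2 at 372 and Col6a1 at 213. aaTEC2-like cells, with the 1 cell of WT 2 included, held them at 564, 321, 264 and 138. Within the epithelium, mTEC1-like cells held Col6a1 at 147 CPM and Col6a2 at 108, the latter at 215 in aaTEC2-like cells. These averages were not tested.

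Col3a1 was at 617, 250 and 344 CPM in aaTEC2-like cells of WT 1, Z/Z 1 and Z/Z 2 and at 6.11, 12.4 and 11.2 in the other epithelial cells (5.43, SE 0.33, adjusted p = 2.4e-12). Col6a3 was at 17.9, 69.3 and 91.9 CPM against 1.24, 2.78 and 1.59 (5.33, SE 0.34). The sums did not overlap for either gene. Col5a3 (4.55), Col1a2 (4.23), Col14a1 (3.72), Col1a1 (3.53), Col6a2 (3.37), Col5a2 (2.97), Col6a1 (2.54) and Col5a1 (2.42) followed on the log2 scale, and Col25a1 (4.33) and Col15a1 (3.35) were higher too. Of the fibril-forming genes tested, 8 of 9 were higher, and of the beaded filament genes 6 of 6. All type IV chains tested but Col4a4 were higher, with Col4a1 at 725, 561 and 598 CPM against 127, 185 and 193 (2.11, SE 0.25) and Col4a6 at 71.6, 75.6 and 36.1 against 3.63, 6.61 and 6.48 (3.45, SE 0.31).

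The collagens that marked other epithelial types were lower in aaTEC2-like cells. Col19a1 was at 0, 0.301 and 3.08 CPM against 71.0, 29.7 and 45.3 (-4.46, SE 0.45), and Col11a2 at 0, 0.903 and 2.20 against 4.87, 26.4 and 27.5 (-3.93, SE 0.48). Col18a1 (-2.85), Col7a1 (-2.60), Col12a1 (-2.43), Col17a1 (-2.28) and Col9a2 (-3.67) were lower by the same test. Col9a1 had 0 UMIs in the aaTEC2-like cells of all 3 libraries and 4.29 to 7.24 CPM in the others. In WT 1, with its 11 cells, 5 of the called genes went the other way, with Col12a1 at 161 CPM against 110 in the rest of that library and Col1a1, Col6a4, Col6a5 and Col8a1 slightly or clearly lower.

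Fibroblast and mural markers were tabulated in the same cells. Pdgfra, which defines thymic fibroblasts, was at 0, 2.71 and 1.32 CPM in aaTEC2-like cells of WT 1, Z/Z 1 and Z/Z 2, against 439 to 581 in fibroblasts of the 4 libraries. Dcn, a collagen-binding proteoglycan, was at 1235, 527 and 660 CPM against 9846 to 13066 in fibroblasts, and Tagln, a smooth muscle gene, at 1566, 1031 and 1169 against 3895 to 6570 in mural cells. Other genes of the mural list differed. Notch3 was at 242, 305 and 373 CPM against 611 to 653 in mural cells. Rgs5 was at 98.4, 88.2 and 106 CPM, below the 258, 118 and 131 of other epithelial cells, with 1401 to 3470 in mural cells. The fibroblast list summed to 373 to 2058 CPM in WT and 1126 to 1328 in Z/Z aaTEC2-like cells, with 1 to 9 of 9 genes detected, and the mural list to 336 to 2362 and 1817 to 2019, again 1 to 9 of 9, the lowest values being those of the single cell of WT 2. Their part in the collagen levels was not tested. The epithelial list summed to 313, 819 and 994 CPM in aaTEC2-like cells of WT 1, Z/Z 1 and Z/Z 2. These sums were below those of the fibroblast and mural lists in the same libraries, and other epithelial cells were at 8806 to 14055. The cluster of 943 cells counted as epithelial by the rule for aaTEC2 markers had its highest score on the mural list (0.197). Epcam was at 44.7, 30.4 and 39.6 CPM against 884 to 1323 in the other epithelial cells, and Nos1 at 259, 583 and 648 against at most 6.86.

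**Figure D5:**
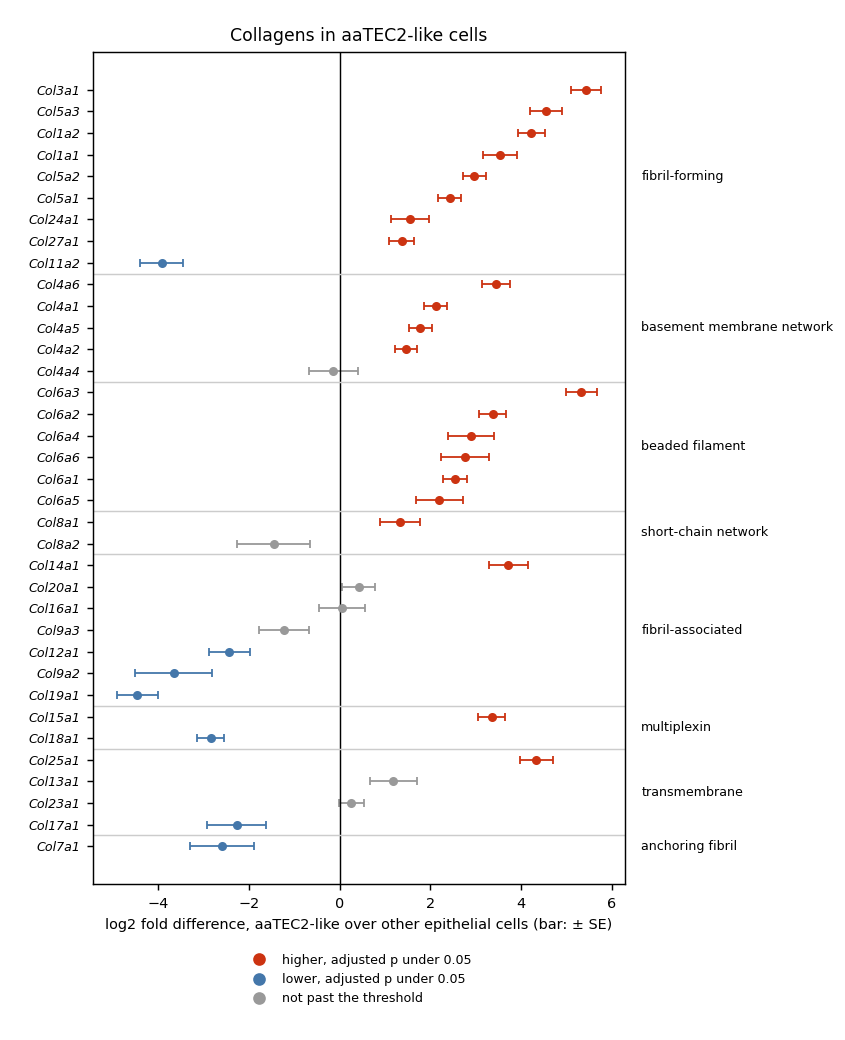
Log2 difference of each collagen gene between aaTEC2-like and other epithelial cells within library (points, with bars of ± SE; horizontal axis), ordered by class. Fibril-forming, basement membrane and beaded filament genes lie to the right except Col11a2 and Col4a4, and Col12a1, Col18a1 and Col19a1 to the left; Col9a1, with 0 UMIs in aaTEC2-like cells, is not drawn.

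Whether the genotype difference itself depended on the lineage was tested as an interaction over all 4 lineages. Between fibroblasts and epithelial cells it differed for 11 of 40 members, 8 with the more positive Z/Z over WT log2 difference in epithelial cells and 3 in fibroblasts, against 7.23% and 6.41% of 16643 genes. Col3a1 (-2.64), Col6a3 (-2.98), Col1a2 (-2.03) and Col6a2 (-1.88) were among the former on the log2 scale, and Col4a4 (2.35), Col6a5 (1.42) and Col17a1 (2.47) were the latter. Of these, Col4a4 rose in fibroblasts, with -0.96 in epithelial cells, whereas Col17a1 fell in epithelial cells and was too low to be fitted in fibroblasts, and Col6a5 was at -1.61 in epithelial cells and -0.29 in fibroblasts. With empty-droplet RNA subtracted 5 of the 11 were called, and Col1a2 (3.59) and Col15a1 (5.46) turned in sign without a call. Between fibroblasts and endothelial cells 1 of 40 differed, Col13a1 (-5.11, adjusted p = 9.7e-05), against 0.379% of genes with the more positive difference in endothelial cells and 0.174% in fibroblasts. This gene fell in fibroblasts and rose in endothelial cells of the same libraries. Between epithelial and endothelial cells 3 members differed, against 3.09% and 4.44% of genes, namely Col15a1, Col28a1 and Col13a1. With shared barcodes removed the 3 counts were 6, 1 and 3. Col4a1 and Col4a2, which rose in both fibroblasts and epithelial cells, were not among the members that differed.

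Genes that make, modify and bind collagen were counted from lists. Of 37 genes of collagen biosynthesis and fibril assembly, 1 of 37 tested was higher in Z/Z fibroblasts, Pcolce, which enhances procollagen processing (206, 194, 296 and 391 CPM, 0.84, adjusted p = 0.0413), against 1.76% of all genes. In epithelial cells 9 of 37 were higher and 0 lower, led by P3h4 (2.65), Dcn (1.13), Sparc (1.79) and Plod2 (1.29), the last a lysyl hydroxylase, against 10.8% and 12.6% of all genes. In either lineage 0 of these 37 genes passed by edgeR with shared barcodes removed, with 5 in fibroblasts and 8 in epithelial cells at an unadjusted p under 0.05. In endothelial cells 0 of 29 passed by edgeR and 1 by DESeq2, with 5 at an unadjusted p under 0.05 by edgeR. In mural cells 1 of 31 passed by edgeR, Dcn, at 33.1, 26.0, 178 and 229 CPM (2.68, adjusted p = 0.0197). Dcn and Lum are also in the fibroblast marker list, which summed to 73.2, 34.7, 217 and 305 CPM in mural cells. Dcn was the larger part of that sum in WT 2, Z/Z 1 and Z/Z 2. The rise of the list sum thus includes that of Dcn, and the list was not summed without it. Of 10 collagen receptors, the epithelial sums had 2 higher, Ddr1 (99.9, 103, 259 and 262 CPM, 1.51) and Mrc2 (1.32), and 1 lower, the integrin gene Itga2 (-2.17), of 9 tested, against the same shares of all genes. None was left with shared barcodes removed, 0 of 10 by edgeR, with 1 at an unadjusted p under 0.05. By edgeR and by DESeq2 0 of 7 receptors passed in fibroblasts and in endothelial cells and 0 of 6 in mural cells, with 2, 2 and 0 at an unadjusted p under 0.05 by edgeR.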

How the data were processed

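Cells of 4 libraries, 2 per genotype, were grouped by the genotype in the labels. The authors deposited raw UMI counts per gene and barcode, mapped with Cell Ranger 7.01 to mm10 (GRCm38.p5) per the labels, intronic reads included, and run summaries in percent that were used as deposited. The labels name a v2 kit and the methods a v3 chip.

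Ribosomal and hemoglobin features (96) were left out. Cells with more than 1000 genes and under 20% mitochondrial UMIs were kept, and the 3.9% with the highest Scrublet scores per library were removed. Cells were clustered with scanpy 1.11.5 (Leiden) without collagen genes and named from marker lists. Total counts per library were 8468086 to 50705511 UMIs over called barcodes. Counts were summed per library and cell type and tested with the edgeR 4.0.16 quasi-likelihood F test (TMM, filterByExpr, two-sided, Benjamini-Hochberg over all genes, threshold 0.05), with DESeq2 1.42.0 as an alternative. The scripts were tested on simulated data. Other alternatives were filters, shared barcodes, thinning, empty-droplet subtraction, a replicate block and single libraries left out.

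Members and lists were chosen with earlier results of these data known. Named were all collagens past the threshold in a genotype comparison, the 8 with the highest mean per lineage and up to 4 per class. Fold differences are on the log2 scale. Promoter windows are from RefSeq, whose table held 35 of the 44 genes; Col4a3 was not among them.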

Additional observations from a re-analysis of the deposited data

Results flagged for a closer look

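The genotype difference of 11 collagen genes differed between fibroblasts and epithelial cells by the interaction test (difference of the Z/Z over WT log2 changes, fibroblasts minus epithelial cells). It was more positive in epithelial cells for Col6a3 (-2.98), Col3a1 (-2.64), Col1a2 (-2.03), Col6a2 (-1.88), Col12a1 (-1.16), Col15a1 (-1.15), Col6a1 (-1.11) and Col5a1 (-1.06), which include 7 genes at far higher levels in fibroblasts. With empty-droplet RNA subtracted 5 of the 11 were called, and Col1a2 and Col15a1 turned to 3.59 and 5.46. The difference was more positive in fibroblasts for Col17a1 (2.47), Col4a4 (2.35) and Col6a5 (1.42), of which Col17a1 and Col6a5 were at -2.37 and -1.61 in epithelial cells, Z/Z over WT. Col13a1, lower in Z/Z fibroblasts and higher in Z/Z endothelial cells, differed by -5.11 between fibroblasts and endothelial cells and by -4.32 between epithelial and endothelial cells. Col15a1 differed by 1.90 between epithelial and endothelial cells and Col28a1 by -4.44. Col28a1 rests on few molecules, with 246 UMIs over the 4 lineages.

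Cell groups outside the comparisons also held collagen. Mesothelial cells, found in Z/Z libraries (5 and 26 cells), took 0.271% of their UMIs in collagens in Z/Z 1 and 0.395% in Z/Z 2. A cluster led by S100b, with 112 and 38 cells and no cells in WT libraries, took 0.122% and 0.149%. Neither group had WT cells for comparison, and empty droplets of these libraries held 0.288% and 0.267%.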

How the results depend on the processing

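With shared barcodes removed, the collagens called between genotypes went from 7 to 3 in fibroblasts and from 16 to 0 in epithelial cells, and those with a difference between these lineages from 11 to 6. With cells thinned to 2000 UMIs (275 cells left out) the counts were 4 in fibroblasts, 0 of 2 in endothelial cells, 3 of 5 in Ptn fibroblasts, 4 of 7 in the other fibroblast sets, 16 of 27 between epithelial and mural cells, 17 of 30 in aaTEC2-like cells, and 7 of 11 and 1 of 3 for the differences between fibroblasts or endothelial cells and epithelial cells. The lower counts after thinning include genes that were no longer tested. Of the aaTEC2-like calls 17 could be compared and all 17 were kept, and between lineages 128 of 142 were. With empty-droplet RNA subtracted, 10 epithelial members and 5 of 11 fibroblast against epithelial differences were called. There the differences of Col15a1 and Col1a2 between fibroblasts and epithelial cells turned to 5.46 and 3.59 and that of Col15a1 between epithelial and endothelial cells to -4.59, at adjusted p from 0.16 to 0.33, and the cause was not tested. Without a filter on low counts there were 11 calls in fibroblasts, 12 in Ptn, 16 in the other fibroblast sets and 1 in mural cells. For fibroblasts against endothelial cells there were 2, where DESeq2 had 0 because it gave no adjusted p for Col13a1. The share of all genes called is not given for the alternative fits here and below. Nor is it given for the shared-barcode counts above, apart from epithelial cells. These counts of members therefore cannot be set against it. Leaving out aaTEC2-like cells turned Col5a3 to -0.39 in epithelial cells. The epithelial Z/Z minus WT collagen share, 0.0531 percentage points, was 0.0361 with empty-droplet RNA subtracted, 0.0433 without shared barcodes and 0.0325 without aaTEC2-like cells.

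Leaving out 1 library at a time, with a lone library assumed to vary like the others, gave 1 to 5 calls in fibroblasts, 5 to 23 in epithelial cells (5 without Z/Z 1 and 8 without Z/Z 2), 1 to 4 in endothelial cells, 0 to 4 in mural cells, 5 to 11 in Ptn fibroblasts, 5 to 14 for fibroblasts against epithelial cells and 1 to 3 for epithelial against endothelial cells. In fibroblasts leaving out either WT library left 1 call, and leaving out Z/Z 2 left 2. Same-numbered libraries did not deviate together (correlations -0.0066 to -0.094), so the numbers were not taken as pairs. The replicate block gave 9 calls in fibroblasts, 17 in epithelial cells, 2 in endothelial cells, 1 in mural cells, 7 in Ptn and 9 in the other fibroblast sets. Over all alternatives, 454 of 563 values of called genes between genotypes kept direction and call, 108 kept direction only and 1 reversed. Between lineages 2187 of 2327 kept both and 140 direction only.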

Other observations

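Mesothelial cells, the surface lining of the organ, were present in the Z/Z libraries with 5 and 26 cells. Col1a2 was at 871 and 961 CPM there, Col3a1 at 564 and 991, Col1a1 at 221 and 472, and Col14a1 at 245 and 310. Col4a4, at 159 and 126 CPM, and Col4a3, at 61.3 and 44.7, were above their fibroblast levels in both libraries, where Col4a4 was at 28.2 and 36.1. The S100b cluster carried Col4a1 (193 and 355 CPM), Col23a1 (125 and 72.6) and Col12a1 (52.4 and 68.8). In tuft-like cells, the chemosensory epithelial type, Col4a4 was at 75.3, 112, 48.5 and 156 CPM in WT 1, WT 2, Z/Z 1 and Z/Z 2, from 37, 19, 4 and 32 UMIs, against at most 3.86 in cTEC-like cells. These levels are values with no test.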
